A study of Homo sapiens with 15 samples.

Results

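Cells of PATU-8988T, a human cell line established from a pancreatic cancer, were treated with 1 of 2 inhibitors of the kinase CDK7 at the same dose and for the same time, and the transcripts left by the compounds were compared directly. Cells received 100 nM THZ1 for 24 h (3 libraries), 100 nM YKL-5-124 for 24 h (3 libraries) or 0.1% DMSO (3 libraries, with no time in the labels). The 6 libraries of the compounds at 24 h, chosen by their labels out of 15, are the subject, the DMSO libraries show which compound moved a gene, and 3 libraries of each compound at 4 h give the earlier difference. The line is the same in every group, and the labels name no genetic change and number the replicates without saying that they were separate cultures. The spread behind each p-value is thus that between these libraries and may be technical. The compounds form 1 pair, compared at 2 times. THZ1 and YKL-5-124 without a time stand for 24 h throughout.

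CDK7 forms the CDK-activating kinase with cyclin H (CCNH) and MAT1 (MNAT1). As part of the general transcription factor TFIIH it phosphorylates the tail of RNA polymerase II (Pol II) when transcription starts, and it also phosphorylates the cell cycle kinases CDK1 and CDK2 on their activating loops. CDK12 and CDK13, with cyclin K, act on the same tail during elongation, and CDK12 is known for keeping up the expression of long DNA repair genes. THZ1 is known to bind CDK12 and CDK13 besides CDK7, whereas YKL-5-124 is known as selective for CDK7.

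The 2 compounds left very different transcript populations at 24 h. Of 14461 genes tested with edgeR's quasi-likelihood test on the counts of all 15 libraries, 10977 (75.9%) differed between THZ1 and YKL-5-124 at a Benjamini-Hochberg adjusted p under 0.05. THZ1 was the higher for 4601 genes (31.8%) and the lower for 6376 (44.1%), and 3512 (24.3%) and 5159 (35.7%) of the genes tested were called and at least 2-fold apart in those directions. Levels are CPM, counts scaled to 1 common library size after TMM, a method that assumes most genes do not change. In CPM the 3 THZ1 libraries lay wholly above the 3 YKL-5-124 libraries for 4732 genes (32.7%) and wholly below them for 6655 (46.0%). Most of the distance from DMSO was on the side of THZ1. Against the same DMSO libraries THZ1 had 4668 genes higher (32.3%) and 6356 lower (44.0%), whereas YKL-5-124 had 1290 higher (8.92%) and 1839 lower (12.7%).

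The make-up of the libraries moved with these differences. Cytosolic ribosomal protein mRNAs took 21.0% to 23.4% of the counts in THZ1 libraries, 6.59% to 8.81% in YKL-5-124 libraries and 9.12% to 11.7% in DMSO libraries. Genes of the mitochondrial genome took 3.46% to 4.44% in THZ1, 0.913% to 1.39% in YKL-5-124 and 0.862% to 1.25% in DMSO. Depth was 15567057 to 18114103 counts in THZ1, 18373599 to 22184092 in YKL-5-124 and 19651529 to 20517571 in DMSO. TMM factors were 0.532 to 0.559 in THZ1, 1.29 to 1.38 in YKL-5-124 and 1.15 to 1.27 in DMSO. Libraries also differed within groups along transcript length. For each library a slope on log2 exonic length was taken of each gene's log2 CPM less its mean over all libraries. This slope was −0.326 to −0.247 in THZ1 libraries and 0.0149 to 0.129 in YKL-5-124 libraries, where replicate 3 stood apart at 0.129. A fit took this slope, centred within each group, as a covariate. Centring removes the gap between the compounds from the covariate. That fit thus adjusts for spread within groups only, and the part of length in the difference between the compounds was not tested.

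Every direction below is therefore relative to a scaling, and the labels name no spike-in. Differences from DMSO were fitted under TMM only, so the side of DMSO on which a compound lies is that under TMM. In bulk RNA fewer cells of a kind and less RNA per cell cannot be told apart. Under TMM the median log2 difference of all genes (THZ1 minus YKL-5-124) was −0.39. RLE factors moved the genes by a median of 0.32, which gave 5296 higher (36.6%) and 5411 lower (37.4%). Upper-quartile factors moved them by 0.30, with 5274 higher (36.5%) and 5467 lower (37.8%). Library totals moved them by −1.28, with 1998 higher (13.8%) and 9927 lower (68.6%). Scaling to the summed counts of cytosolic ribosomal protein genes moved them by −2.77, with 277 higher (1.92%) and 12946 lower (89.5%). That last scaling shows a gene relative to ribosomal protein mRNAs, which themselves took different shares in the groups. These 5 scalings, TMM included, are the ones meant wherever a list's direction is said to hold or to turn, and a list's counts and median read against these shares and medians of all genes, which also had more lower than higher calls under each of the 5. Of the 56 genes named by rule below that were called higher under TMM, 54 kept that sign under library totals and 32 against ribosomal protein genes, and all 67 called lower kept theirs under both. Of the 186 genes the rule selects, 60 overlap another tested gene, and without the strand setting of the counting, which the sources used here do not give, reads of opposite genes cannot be told apart.

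**Figure D1:**
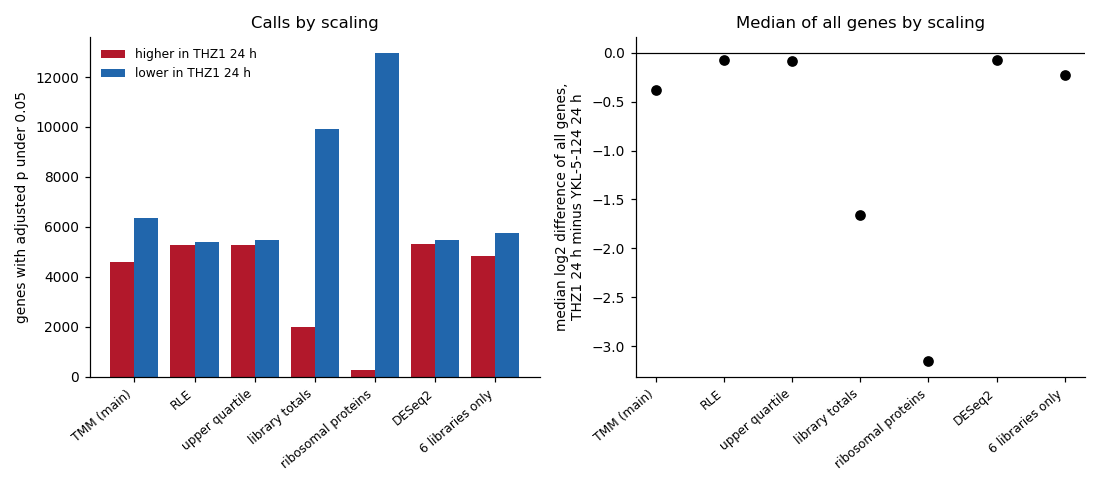
Left, bars give the number of genes with an adjusted p under 0.05 that were higher (red) or lower (blue) in THZ1 24 h than in YKL-5-124 24 h under each scaling or tool, from 4601 higher and 6376 lower under TMM to 277 higher and 12946 lower against ribosomal protein genes. Right, points give the median log2 difference of all genes under the same settings, which lies near 0 under RLE, upper-quartile and DESeq2 scaling and at −1.66 under library totals.

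**Figure D2:**
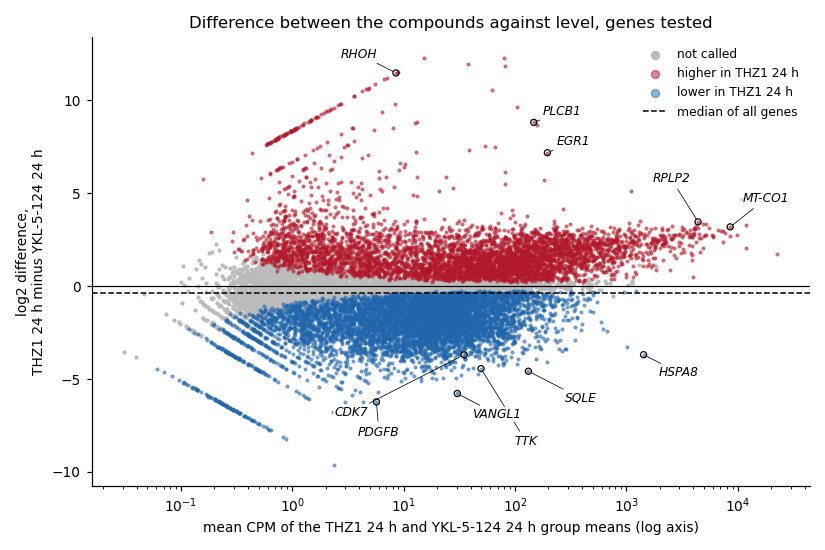
Each point is 1 of the 14461 genes: the x axis is the mean of the CPM means of the THZ1 24 h and YKL-5-124 24 h groups (log axis), the y axis the log2 difference, THZ1 minus YKL-5-124, under TMM; red and blue points passed the test, and the dashed line is the median of all genes. Straight rows of points at the edges are genes with 0 counts in 1 of the groups; RHOH is one of them, EGR1 and PLCB1 stand high at 100 to 300 CPM, and among the most abundant transcripts most points lie above 0.

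The transcript of the shared target differed between the compounds. CDK7 (GRCh38 chromosome 5, 69234795 to 69277430) had 5.07, 5.41 and 4.59 CPM in the THZ1 libraries, against 75.4, 65.2 and 54.5 CPM in the YKL-5-124 libraries and 67.05, 54.3 and 67.3 CPM in DMSO. All 3 THZ1 libraries lay far below the other 6, which overlapped. CDK7 mRNA was 12.9-fold lower in THZ1 than in YKL-5-124, a log2 difference of −3.69 ± 0.18 (SE; edgeR adjusted p = 8.48e-11), and it differed little between YKL-5-124 and DMSO at 0.049 (adjusted p = 0.861). At 4 h the log2 difference between the compounds was −0.23 and did not pass (adjusted p = 0.257). No library carries a deletion of CDK7, so its level is a readout and no check of the labels.

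The partners of CDK7 had smaller differences under TMM. MNAT1 averaged 43.4 ± 4.86 CPM in THZ1 and 40.2 ± 8.72 CPM in YKL-5-124 (SD, n = 3 libraries each), a log2 difference of 0.11 with a 95% interval of −0.36 to 0.57 (adjusted p = 0.666). It was called lower under library totals, at −1.17, and against ribosomal protein genes, at −2.64. CCNH, which overlaps RASA1 on the other strand, was 1.45-fold lower in THZ1 (log2 −0.53 ± 0.18, adjusted p = 0.0137), a call that was lost under RLE, upper-quartile and DESeq2 scaling, in a fit of the 6 libraries alone and without THZ1 replicate 3 or YKL-5-124 replicate 1. Among the other tested subunits of TFIIH, ERCC3, a helicase that opens promoter DNA, had 20.5, 16.9 and 18.4 CPM in THZ1 and 76.3, 75.9 and 72.7 CPM in YKL-5-124, and was 4.03-fold lower. GTF2H3, a core subunit, went the other way, with 140.2, 145 and 148 CPM in THZ1, 29.5, 30.2 and 26.1 CPM in YKL-5-124 and 59.7, 63.3 and 70.99 CPM in DMSO. Under TMM GTF2H3 thus lay above DMSO in THZ1 and below it in YKL-5-124, and it overlaps EIF2B1 on the other strand. Of the 9 tested members of CDK7 and TFIIH, 3 were higher and 4 lower in THZ1 under TMM, 3 and 3 under RLE and 1 and 7 under library totals, beside 31.8% higher and 44.1% lower over all genes under TMM.

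Kinases and factors of Pol II elongation were mostly lower in THZ1. Of 28 tested, 22 were lower and 2 higher, with a median log2 difference of −1.70, and most of the called members were lower under all 5 scalings. CDK12 (chromosome 17, 39461511 to 39564907) had 8.70, 9.39 and 7.93 CPM in THZ1, against 66.6, 68.99 and 87.8 CPM in YKL-5-124 and 59.8, 89.2 and 66.4 CPM in DMSO, with no overlap between THZ1 and either other group, and was 8.58-fold lower than in YKL-5-124 (log2 −3.10 ± 0.21, adjusted p = 2.1e-09). CDK13 had 6.16, 5.41 and 6.89 CPM in THZ1 and 21.1, 23.9 and 32.8 CPM in YKL-5-124, again without overlap, and was 4.21-fold lower (log2 −2.07 ± 0.33, adjusted p = 3.05e-05). Their cyclin, CCNK, had under 6 CPM in all 6 libraries and a log2 difference of −1.13 ± 0.43 (adjusted p = 0.0274), which missed the threshold under RLE, upper-quartile and DESeq2 scaling and without THZ1 replicate 1, THZ1 replicate 2 or YKL-5-124 replicate 3. CDK9, the kinase of P-TEFb, which releases paused Pol II, was 2.04-fold lower (log2 −1.03 ± 0.17). MEPCE, which holds P-TEFb in an inactive complex through 7SK RNA, had 5.92, 6.94 and 6.68 CPM in THZ1 and 71.7, 81.9 and 71.04 CPM in YKL-5-124, and LEO1, a subunit of the PAF1 elongation complex, was 11.6-fold lower. NELFCD, a subunit of the negative elongation factor, was the largest exception with 733 ± 29.1 CPM in THZ1 and 205 ± 9.70 CPM in YKL-5-124 (log2 1.84 ± 0.09). THZ1 against DMSO had 3 of these 28 higher and 22 lower, beside 32.3% and 44.0% of all genes, and YKL-5-124 against the same DMSO libraries had 5 higher and 1 lower, beside 8.92% and 12.7%.

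Pol II itself split by subunit. Of 12 tested subunits 7 were higher and 2 lower in THZ1 under TMM, 5 and 5 under library totals, while the ribosomal protein reference left 0 higher and 10 lower. POLR2E, a subunit shared by the nuclear polymerases, had 1368, 1369 and 1406 CPM in THZ1 and 236, 255 and 224 CPM in YKL-5-124. POLR2D, which sits on the stalk of the enzyme, had 3.38, 5.21 and 5.22 CPM in THZ1 and 31.3, 32.9 and 32.8 CPM in YKL-5-124. These 2 subunits thus moved apart by 2.54 and −2.80 on the log2 scale, neither with overlap between the groups. The largest subunit, POLR2A, which carries the tail that CDK7 phosphorylates, scattered too widely for a call, with 14.6, 26.03 and 27.9 CPM in THZ1, 25.2, 26.3 and 66.7 CPM in YKL-5-124 and 7.11, 37.4 and 9.35 CPM in DMSO (log2 −0.78 ± 0.71, adjusted p = 0.329). It was called lower under library totals, at −2.08, against ribosomal protein genes, at −3.66, and with the length slope as a covariate, at −0.69, and also with no filter on low counts. Mediator, the complex that links activators to Pol II, had 22 lower and 4 higher of 32 tested subunits, and was mostly lower under all 5 scalings. MED13, a subunit of its kinase module, averaged 8.74 ± 0.218 CPM in THZ1 and 86.4 ± 6.44 CPM in YKL-5-124, a 9.88-fold difference.

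**Figure D3:**
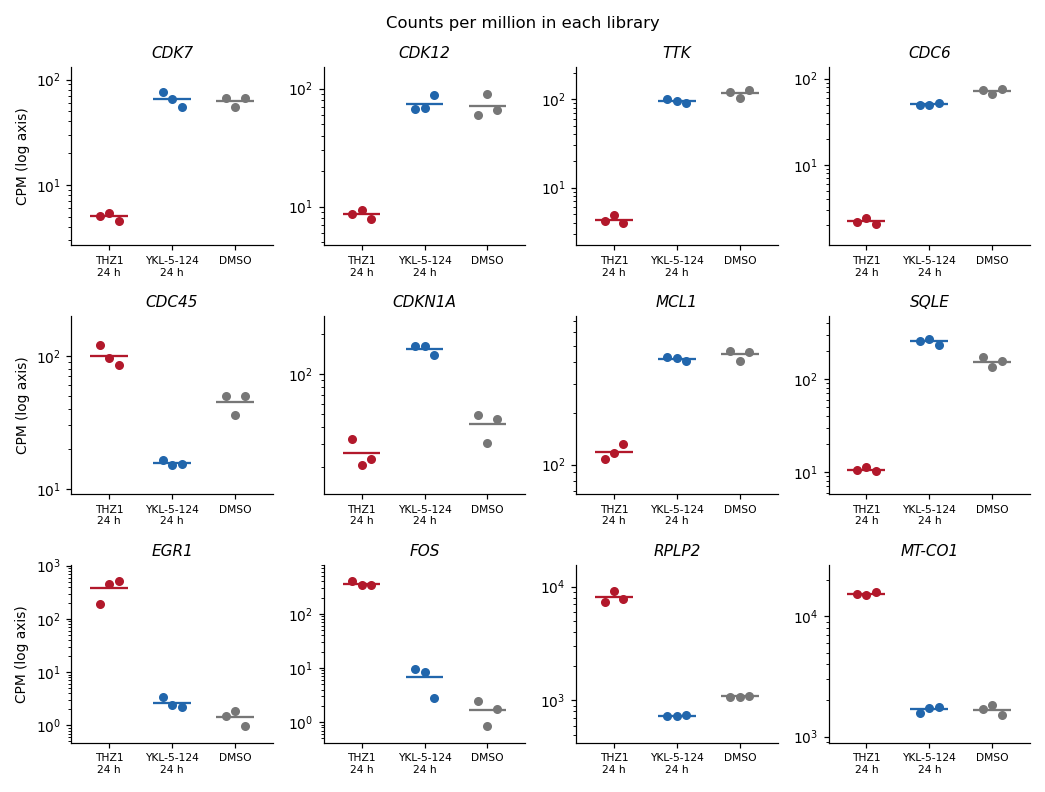
Points are single libraries and lines are group means of CPM (log axis) for 12 genes in THZ1 24 h, YKL-5-124 24 h and DMSO, 3 libraries each. CDK7, CDK12, TTK, CDC6, MCL1 and SQLE lie lowest in THZ1, EGR1, FOS, RPLP2, MT-CO1 and CDC45 lie highest there, and CDKN1A lies highest in YKL-5-124.

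Genes of G2 and mitosis had the lowest median of the 37 lists under TMM. Their transcripts rise before division under the MuvB and FOXM1 complexes, which bind a promoter element called CHR, often beside CCAAT boxes. Of 40 tested, 33 were lower and 5 higher in THZ1, with a median log2 difference of −2.42, and the called members were mostly lower under all 5 scalings. TTK, a kinase of the spindle checkpoint (chromosome 6, 80003887 to 80042527), had 4.23, 4.90 and 3.96 CPM in THZ1, against 99.7, 95.1 and 89.7 CPM in YKL-5-124 and 121, 104 and 128 CPM in DMSO. It was 21.7-fold lower than in YKL-5-124 (log2 −4.44 ± 0.17, adjusted p = 1.04e-11), with the 3 THZ1 libraries far below the rest. CDCA8, or borealin, a subunit of the chromosomal passenger complex, had 4.35, 3.17 and 3.65 CPM in THZ1 and 76.5, 79.2 and 82.9 CPM in YKL-5-124 and was 21.4-fold lower. CCNB1, cyclin B1, had 42.99, 56.7 and 52.2 CPM in THZ1 and 547, 539.7 and 469 CPM in YKL-5-124, and its partner CDK1 was lower by less, 3.09-fold. Among the 5 that were higher was BIRC5, survivin, at 499.5 ± 12.6 CPM in THZ1 and 193 ± 22.3 CPM in YKL-5-124 (log2 1.37 ± 0.12), whose log2 difference was 0.10 under library totals. MKI67, the antigen of the Ki-67 proliferation stain, scattered between replicates, with 7.12, 30.7 and 37.04 CPM in THZ1, 19.1, 20.7 and 408 CPM in YKL-5-124 and 22.3, 454 and 28.6 CPM in DMSO, and its log2 difference of −2.57 ± 1.47 did not pass (adjusted p = 0.124). Without YKL-5-124 replicate 3 the difference was 0.32. MKI67 was called lower with the length slope as a covariate, at −1.47, and also under library totals, against ribosomal protein genes and with no filter on low counts. The high libraries of MKI67 and POLR2A, YKL-5-124 replicate 3 and DMSO replicate 2, had the steepest slopes on exonic length of their groups, 0.129 and 0.159. THZ1 against DMSO lowered 33 of the 40 and raised 3, beside 44.0% and 32.3% of all genes. YKL-5-124 lowered 9 and raised 0, beside 12.7% and 8.92%.

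Promoter sequence describes the list as chosen, and its part in the difference between the compounds was not tested. RefSeq promoters of GRCh38.p14 were matched by symbol to 28 of the 40 G2/M genes and to 6935 of the 14442 tested genes with a unique symbol, and the 250 bases before each gene start were searched on both strands. Only the 22114 promoters whose symbol occurs once were used. The CHR letters TTTGAA stood in 15 of the 28 G2/M promoters, 53.6%, against 7.67% of all tested genes with a promoter and 14.0% of all promoters used. Of genes at least 2-fold lower in THZ1 9.27% of matched promoters held them, and of those at least 2-fold higher 6.33%. The letters CCAAT stood in 82.1% of the G2/M promoters, against 36.1% of all tested and 33.4% of all promoters used. For CCAAT the lower and the higher genes had 38.9% and 32.7%. Below are the last 150 bases before the start for the 3 called G2/M genes with the largest falls among those with a CHR match, with the match in capitals. CDCA8 lies at chr1:37692366-37692515, KIF11 at chr10:92592980-92593129 and KIF23 at chr15:69414199-69414348, all on the plus strand, and in KIF11 the element reads on the other strand.
CDCA8: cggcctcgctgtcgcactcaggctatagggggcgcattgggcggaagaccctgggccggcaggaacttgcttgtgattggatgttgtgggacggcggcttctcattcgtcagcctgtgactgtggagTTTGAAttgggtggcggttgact
KIF11: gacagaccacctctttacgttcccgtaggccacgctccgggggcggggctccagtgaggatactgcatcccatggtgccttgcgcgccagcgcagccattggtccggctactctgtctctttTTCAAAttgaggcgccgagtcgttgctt
KIF23: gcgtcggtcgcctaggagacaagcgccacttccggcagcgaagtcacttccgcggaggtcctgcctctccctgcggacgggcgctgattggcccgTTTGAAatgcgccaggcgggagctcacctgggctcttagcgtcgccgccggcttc
The match begins 23 bases before the start in CDCA8, 28 in KIF11 and 55 in KIF23. KIF11, a motor that separates spindle poles, averaged 12.2 CPM in THZ1 and 173 CPM in YKL-5-124 (log2 −3.82 ± 0.14), and KIF23, a motor of the central spindle, 13.3 CPM in THZ1 and 102 CPM in YKL-5-124 (log2 −2.93 ± 0.14); both are named here for their promoter match. A match is a string of letters and shows no binding.

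Genes of G1/S and DNA replication, many of them E2F targets, split more evenly. Of 46 tested, 26 were lower and 14 higher in THZ1, beside 44.1% and 31.8% of all genes under TMM. Most of the called members were lower under all 5 scalings. CDC6, which loads the MCM helicase (chromosome 17, 40287633 to 40304657), had 2.17, 2.45 and 2.09 CPM in THZ1, against 49.4, 49.99 and 52.3 CPM in YKL-5-124 and 74.5, 66.4 and 75.03 CPM in DMSO. It was 22.5-fold lower than in YKL-5-124 (log2 −4.49 ± 0.15, adjusted p = 4.92e-12) and in YKL-5-124 it lay below every DMSO library as well (log2 −0.51, adjusted p = 0.00572). PCNA, the sliding clamp of DNA polymerases, had 12.6, 10.00 and 10.8 CPM in THZ1, 134, 129 and 107 CPM in YKL-5-124 and 278, 206 and 269 CPM in DMSO, so that the 3 groups stood in separate ranges. CDC45, a subunit of the active helicase, took another order with 119, 96.3 and 85.5 CPM in THZ1, 16.4, 15.2 and 15.3 CPM in YKL-5-124 and 49.6, 35.98 and 49.8 CPM in DMSO. THZ1 was thus 6.42-fold above YKL-5-124 (log2 2.68 ± 0.16, adjusted p = 6.66e-10) with DMSO between them under TMM, though the difference of CDC45 was −0.10 against ribosomal protein genes. TYMS, thymidylate synthase, averaged 154 ± 17.1 CPM in THZ1 and 19.9 ± 1.53 CPM in YKL-5-124 and overlaps 2 genes on the other strand, ENOSF1 and TYMSOS. Against DMSO, THZ1 lowered 31 and raised 10 of the 46, beside 44.0% and 32.3% of all genes. YKL-5-124 lowered 32 and raised 1, beside 12.7% and 8.92% of all genes.

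The E2F letters TTTCCCGC or TTTGGCGC stood in 10 of 30 matched G1/S promoters, 33.3%, against 3.46% of all tested genes and 1.91% of all promoters used. They stood both in genes that were lower and in genes that were higher. Of genes at least 2-fold lower in THZ1 3.55% of matched promoters held them, and of those at least 2-fold higher 3.16%. The lowest and the highest called G1/S gene with a match are printed over the 150 bases before their starts: CDT1 at chr16:88803639-88803788 and TYMS at chr18:657503-657652, both on the plus strand and both with the first of these strings on the other strand.
CDT1: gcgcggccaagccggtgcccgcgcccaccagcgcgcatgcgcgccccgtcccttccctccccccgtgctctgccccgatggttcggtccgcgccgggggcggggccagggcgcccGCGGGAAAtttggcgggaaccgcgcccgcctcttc
TYMS: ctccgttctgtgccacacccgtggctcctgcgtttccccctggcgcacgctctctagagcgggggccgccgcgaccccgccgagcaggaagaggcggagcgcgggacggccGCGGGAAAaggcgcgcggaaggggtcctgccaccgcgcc
The match begins 35 bases before the start in CDT1 and 39 in TYMS. CDT1, which works with CDC6 in loading the helicase and is named for its match, averaged 9.11 CPM in THZ1 and 27.9 CPM in YKL-5-124 (log2 −1.61 ± 0.25), whereas the difference of TYMS was 2.95 ± 0.15.

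Cyclins, CDK inhibitors and the RB and E2F families had shares close to those of all genes, with 15 of 30 lower and 9 higher in THZ1 and more lower than higher calls under all 5 scalings. CDKN1A (p21), an inhibitor of CDK2 that p53 induces (chromosome 6, 36676460 to 36687339), had 32.6, 20.9 and 22.96 CPM in THZ1, against 164, 162 and 138 CPM in YKL-5-124 and 49.5, 30.5 and 46.3 CPM in DMSO. YKL-5-124 lay above every other library, and the THZ1 range overlapped that of DMSO. CDKN1A was 6.07-fold lower in THZ1 than in YKL-5-124 (log2 −2.60 ± 0.22, adjusted p = 3.31e-08), and the differences from DMSO were −0.73 for THZ1 (adjusted p = 0.00601) and 1.88 for YKL-5-124 (adjusted p = 2.92e-05). CDKN1B (p27) differed by 0.10 with a 95% interval of −0.20 to 0.41 (adjusted p = 0.533), and was called higher under RLE, at 0.42, upper-quartile and DESeq2 scaling, and lower under library totals, at −1.17, and against ribosomal protein genes. CDC25A, the phosphatase that activates CDK2, averaged 2.63 ± 0.202 CPM in THZ1 and 54.3 ± 5.45 CPM in YKL-5-124. TFDP1, the dimerization partner of E2F proteins, averaged 727 ± 71.8 CPM in THZ1 and 129 ± 1.49 CPM in YKL-5-124, and CDKN2A, which encodes p16 and p14ARF, 1057 ± 101 CPM in THZ1 and 169 ± 34.96 CPM in YKL-5-124. Those 2 rises did not hold against ribosomal protein genes, where the log2 differences were −0.28 and −0.10. E2F1 had 27.8, 32.5 and 29.7 CPM in THZ1 and 30.9, 29.2 and 33.9 CPM in YKL-5-124, both below 61.8, 60.98 and 64.3 CPM in DMSO, and did not pass between the compounds (95% interval −0.29 to 0.17, adjusted p = 0.618), but was called higher under RLE, at 0.26, and with DESeq2, and lower under library totals, at −1.34, and against ribosomal protein genes. E2F2 was at −1.17 (adjusted p = 0.0506), and was called lower under library totals, against ribosomal protein genes, in a fit of the 6 libraries alone, with the length slope as a covariate, with no filter on low counts and without YKL-5-124 replicate 2. CCND1, cyclin D1, was at −0.61 ± 0.19 (adjusted p = 0.00782, lost under RLE, upper-quartile and DESeq2 scaling and without THZ1 replicate 1).

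DNA repair genes were mostly lower in THZ1, and a part of CDK12 or of gene length in this was not tested. Of 32 tested genes of homologous recombination and the Fanconi pathway 19 were lower and 6 higher, and of 26 of the ATR checkpoint 18 were lower and 6 higher. Over all genes 44.1% were lower and 31.8% higher under TMM. Both lists were mostly lower under all 5 scalings. BRCA2, a mediator of homologous recombination, had 1.57, 1.23 and 2.40 CPM in THZ1, against 18.4, 18.7 and 27.7 CPM in YKL-5-124 and 25.5, 34.3 and 25.7 CPM in DMSO. FANCM, a translocase that remodels stalled forks, had 1.93, 2.04 and 1.15 CPM in THZ1 and 21.2, 21.1 and 23.1 CPM in YKL-5-124. BRCA2 was 12.4-fold and FANCM 12.8-fold lower, with no overlap for either. FANCI, which is ubiquitinated at DNA crosslinks, was higher at 173 ± 5.28 CPM in THZ1 and 55.7 ± 8.36 CPM in YKL-5-124, and so was TIMELESS, which steadies the replication fork, at 397 ± 16.3 CPM in THZ1 and 57.9 ± 4.15 CPM in YKL-5-124. Against ribosomal protein genes these 2 stood at −1.17 and −0.011. Against DMSO, THZ1 lowered 23 of the recombination and Fanconi genes and raised 3, beside 44.0% and 32.3% of all genes. YKL-5-124 lowered 13 of them and raised 0, beside 12.7% and 8.92% of all genes.

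Targets of p53 were more often lower than higher, 17 against 6 of 28 tested, beside 44.1% and 31.8% of all genes under TMM. The direction was the same under all 5 scalings, as it was for all genes. TP53INP1, a stress-induced cofactor of p53, was also highest in YKL-5-124, with 1.93, 1.12 and 1.46 CPM in THZ1, 14.1, 12.04 and 15.8 CPM in YKL-5-124 and 3.29, 4.18 and 3.62 CPM in DMSO; it overlaps NDUFAF6 on the other strand. GADD45A, a growth arrest gene, went against the list with 343, 209 and 222 CPM in THZ1 and 56.96, 59.1 and 51.6 CPM in YKL-5-124 (log2 2.21 ± 0.17, adjusted p = 9.18e-09). Against DMSO, THZ1 had 7 of the targets higher and 18 lower, beside 32.3% and 44.0% of all genes. YKL-5-124 had 7 higher and 6 lower, beside 8.92% and 12.7%.

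Regulators on both sides of cell death were among the genes lower in THZ1. MCL1, a short-lived anti-apoptotic protein of the BCL2 family (chromosome 1, 150574551 to 150579738), had 108, 117 and 132 CPM in THZ1, against 432, 423 and 407 CPM in YKL-5-124 and 464, 408 and 463 CPM in DMSO, a 3.54-fold difference between the compounds (log2 −1.82 ± 0.13, adjusted p = 3.06e-09). BCL2L1, which encodes anti-apoptotic BCL-XL, had 15.5, 14.3 and 12.1 CPM in THZ1, 145, 150.2 and 134 CPM in YKL-5-124 and 93.1, 80.8 and 85.1 CPM in DMSO, so the compounds lay on opposite sides of DMSO. BAK1, a pore-forming effector of apoptosis, had 3.98, 2.45 and 2.61 CPM in THZ1 and 52.4, 53.3 and 37.97 CPM in YKL-5-124 and was 16.01-fold lower. THZ1 libraries were thus lower both for guardians and for an effector. BID, which links death receptors to mitochondria, was 4.04-fold higher in THZ1 and PMAIP1 (NOXA), an antagonist of MCL1, 2.26-fold, but PMAIP1 had a log2 difference of −0.10 under library totals and BID of −0.73 against ribosomal protein genes. Over the family 10 of 20 were lower and 5 higher, shares near those of all genes. Of 19 death receptors, caspases and inhibitors of apoptosis 14 were lower and 1 higher, the second-lowest median of the lists at −1.92, under all 5 scalings mostly lower. TNFRSF1A, a TNF receptor, averaged 3.15 ± 0.557 CPM in THZ1 and 63.5 ± 7.43 CPM in YKL-5-124. The exception was TNFRSF10D, a decoy receptor of TRAIL, with 212, 216 and 200.5 CPM in THZ1, 31.98, 27.8 and 25.8 CPM in YKL-5-124 and 19.6, 12.5 and 18.1 CPM in DMSO.

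Immediate-early and other short-lived transcripts included some of the largest rises, those of EGR1, EGR4 and FOS. They are known to be induced within minutes by growth factors and stress through serum response factor, which binds the CArG box, and their mRNAs are short-lived. EGR1, a zinc finger transcription factor (chromosome 5, 138465490 to 138469315), had 194, 462 and 509.6 CPM in THZ1, against 3.39, 2.38 and 2.17 CPM in YKL-5-124 and 1.51, 1.86 and 0.969 CPM in DMSO. All 3 THZ1 libraries lay far above the other 6, and the difference between the compounds was 146-fold (log2 7.19 ± 0.41, adjusted p = 4.17e-10). FOS, a subunit of AP-1, had 397, 341 and 339 CPM in THZ1, 9.45, 8.46 and 2.80 CPM in YKL-5-124 and 2.49, 0.851 and 1.73 CPM in DMSO. FOS was 51.9-fold higher in THZ1 than in YKL-5-124 (log2 5.70 ± 0.41, adjusted p = 4.31e-09), and in YKL-5-124 it was also higher than in DMSO (log2 2.05, adjusted p = 0.00241). EGR4, a relative of EGR1, had 447 counts over the THZ1 libraries and 3 over the YKL-5-124 libraries, a ratio of 419.8 with a 95% counting interval of 143 to 2043 after scaling. JUN, the partner of FOS, was not called under TMM, with 89.97, 81.4 and 90.99 CPM in THZ1, 64.2, 75.2 and 73.7 CPM in YKL-5-124 and 109.6, 146 and 119.6 CPM in DMSO (log2 0.30 ± 0.18, 95% interval −0.089 to 0.69, adjusted p = 0.147). It was called higher under RLE, at 0.62, under upper-quartile and DESeq2 scaling, in a fit of the 6 libraries alone and with the length slope as a covariate, at 0.30, and lower under library totals, at −0.98, and against ribosomal protein genes. FOSL2, another AP-1 subunit, was 9.76-fold lower in THZ1. MYC had 152, 117 and 118 CPM in THZ1 and 82.1, 79.2 and 88.5 CPM in YKL-5-124, a log2 difference of 0.63 ± 0.17 (adjusted p = 0.00364) that was −0.66 under library totals. Over the list of 34, 16 were higher and 11 lower under TMM, a split that turned to 9 and 22 under library totals, while the ribosomal protein reference left 6 higher and 25 lower.

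The EGR1 promoter is printed because it is the 1 of 19 matched promoters of this list with a CArG box in the 250 bases before the start (5.26%, against 0.851% of all tested genes and 1.12% of all promoters used). The 150 bases at chr5:138465329-138465478, plus strand, hold 2 boxes, in capitals, which begin 105 and 83 bases before the start.
EGR1: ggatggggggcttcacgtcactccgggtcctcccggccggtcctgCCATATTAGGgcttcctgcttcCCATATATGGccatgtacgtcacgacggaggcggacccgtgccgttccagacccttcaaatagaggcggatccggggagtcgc
This window does not reach boxes farther from a start, so the share says nothing of the other members.

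Genes that report ERK signalling had shares near those of all genes. Of 21 tested, 11 were lower and 5 higher, with EGR1 among the higher ones, and lower calls outnumbered higher ones under all 5 scalings. DUSP4, a phosphatase that restrains ERK, had 0.845, 0.204 and 0.939 CPM in THZ1, 8.85, 8.75 and 11.1 CPM in YKL-5-124 and 17.01, 26.3 and 17.4 CPM in DMSO, and SPRY2, a feedback inhibitor of receptor signalling, was 3.80-fold lower than in YKL-5-124. VGF, a secreted neuroendocrine peptide precursor, stood out on the other side with 35.4, 46.8 and 60.8 CPM in THZ1 and 0.805, 0.791 and 0.829 CPM in YKL-5-124 (log2 5.87 ± 0.45).

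Inflammatory and antiviral genes gave mixed calls. NF-kB targets were lower for 10 and higher for 5 of 22 tested, beside 44.1% and 31.8% of all genes under TMM. More calls were lower than higher under all 5 scalings. CXCL3, a neutrophil chemokine, had 30.4, 19.8 and 20.1 CPM in THZ1 and 0.805, 1.12 and 0.355 CPM in YKL-5-124 (log2 4.94 ± 0.39), whereas TNIP1, an inhibitor of the pathway, had 14.98, 23.5 and 20.1 CPM in THZ1, 138, 128 and 143 CPM in YKL-5-124 and 69.5, 100.1 and 76.3 CPM in DMSO. Chemokine and inhibitor thus went opposite ways, and TNIP1 lay above DMSO in YKL-5-124 and below it in THZ1. Interferon-stimulated genes were lower for 10 and higher for 4 of 22, and their calls were mostly lower under all 5 scalings. In both lists the lower share was close to that of all genes and the higher share was below it. DDX58, which encodes the RNA sensor RIG-I, averaged 1.56 ± 0.393 CPM in THZ1 and 32.02 ± 3.37 CPM in YKL-5-124, and IFIT5, an antiviral RNA-binding protein, 0.726 ± 0.318 CPM in THZ1 and 16.9 ± 2.80 CPM in YKL-5-124. IFI6, an interferon-induced protein, was 3.65-fold higher in THZ1.

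The mRNAs of cytosolic ribosomes and of the mitochondrial genome had the highest medians of the lists of at least 10 genes under TMM. Of 84 tested cytosolic ribosomal protein genes 82 were higher and 2 lower in THZ1 under TMM, 75 and 3 under library totals, and 20 and 28 against their own sum. The median log2 difference was 2.71, beside medians of 2.15 for THZ1 and −0.57 for YKL-5-124 against DMSO. RPLP2, an acidic protein of the ribosomal stalk (chromosome 11, 809647 to 812880), had 7308, 9171 and 7811 CPM in THZ1, against 723, 728 and 749.5 CPM in YKL-5-124 and 1078, 1080 and 1099 CPM in DMSO. It was 11.04-fold higher in THZ1 (log2 3.46 ± 0.13, adjusted p = 6.35e-12), and its stalk partner RPLP1 10.4-fold. The 2 lower genes were RPL7L1, which encodes a ribosomal protein-like factor and was not called under RLE, upper-quartile and DESeq2 scaling or without any 1 of the THZ1 replicates or YKL-5-124 replicate 3, and RPL39L, a paralog known from testis, which averaged 8.99 ± 2.38 CPM in THZ1 and 28.2 ± 9.16 CPM in YKL-5-124. Ribosomal protein genes have many processed pseudogenes, with which reads can be shared. Of 339 tested processed pseudogenes 65.8% were higher in THZ1, and the sources used here do not say how the counting placed shared reads.

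All 13 mRNAs encoded by the mitochondrial genome, which a polymerase of its own transcribes and not Pol II, were higher in THZ1 under TMM, RLE, upper-quartile and library-total scaling, whereas against ribosomal protein genes 0 was higher and 1 lower. MT-CO1, a subunit of cytochrome c oxidase, had 15293, 15098 and 15997 CPM in THZ1, against 1561, 1729 and 1778 CPM in YKL-5-124 and 1699, 1817 and 1501 CPM in DMSO. THZ1 libraries were 9.15-fold above YKL-5-124 (log2 3.19 ± 0.18, adjusted p = 2.62e-10), whose range overlapped that of DMSO. MT-ND4, a subunit of complex I, was 9.54-fold higher and overlaps MT-ND4L on the same strand. Nuclear-encoded subunits of the respiratory chain went the same way in 73 of 80, with 5 lower, but in 45 with 11 lower under library totals, and in 0 with 71 lower against ribosomal protein genes. COX8A, a small subunit of cytochrome c oxidase, averaged 498 ± 116 CPM in THZ1 and 64.8 ± 11.8 CPM in YKL-5-124. SDHA, the catalytic subunit of complex II, went against the list with 82.7, 80.5 and 77.95 CPM in THZ1 and 367, 374 and 398 CPM in YKL-5-124. Mitochondrial ribosomal proteins, which nuclear genes encode, did not share that direction, with 40 of 76 lower and 21 higher under TMM. That is not far from all genes, of which 44.1% were lower and 31.8% higher. The calls of this list were mostly lower under all 5 scalings, as were those of all genes. Its members ran from MRPL36 at −3.72 to MRPL42 at 2.92.

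Genes that build ribosomes did not share the direction of the ribosomal proteins either. Of 35 tested genes of ribosome biogenesis and MYC targets 19 were lower and 10 higher, not far from the shares of all genes. BYSL, an assembly factor of the small subunit, had 3.02, 1.43 and 2.40 CPM in THZ1, against 65.8, 70.7 and 52.3 CPM in YKL-5-124 and 88.7, 71.00 and 84.7 CPM in DMSO, a 27.8-fold difference. GNL3, nucleostemin, had 12.1, 9.60 and 9.18 CPM in THZ1, 144, 139.8 and 129.5 CPM in YKL-5-124 and 304, 253 and 298 CPM in DMSO, in 3 separate ranges. SRM, spermidine synthase and a MYC target, was higher, with 121, 252 and 262 CPM in THZ1 and 30.4, 31.04 and 47.01 CPM in YKL-5-124, and at −0.26 against ribosomal protein genes. Hosts of snoRNAs, genes that are mostly noncoding and whose introns carry guides of ribosomal RNA modification, were higher for 18 and lower for 2 of 24 under TMM, 9 and 9 under library totals, while the ribosomal protein reference left 2 higher and 17 lower. SNHG6 averaged 515 ± 55.7 CPM in THZ1, 54.1 ± 14.3 CPM in YKL-5-124 and 75.7 ± 12.4 CPM in DMSO. The hosts' median against DMSO was 0.38 in THZ1 and −0.79 in YKL-5-124, so under TMM the compounds lay on opposite sides of DMSO. Other scalings were not tried for this.

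Proteasome subunits were higher for 24 and lower for 9 of 37, turned to 8 and 19 under library totals and to 0 and 37 against ribosomal protein genes. PSMD2, a scaffold subunit of the regulatory particle, had 5146, 5247 and 5214 CPM in THZ1 and 1010, 1025 and 1024 CPM in YKL-5-124. PSMC6, an ATPase of the base, averaged 33.1 ± 6.16 CPM in THZ1 and 136 ± 22.7 CPM in YKL-5-124, so subunits of 1 particle differed in direction. Aminoacyl-tRNA synthetases, of which 20 were found under the table's symbols, gave 9 higher and 7 lower under TMM and 5 and 12 under library totals. VARS, the valine enzyme, was 4.44-fold higher and FARSA, a subunit of the phenylalanine enzyme, 13.2-fold lower.

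**Figure D4:**
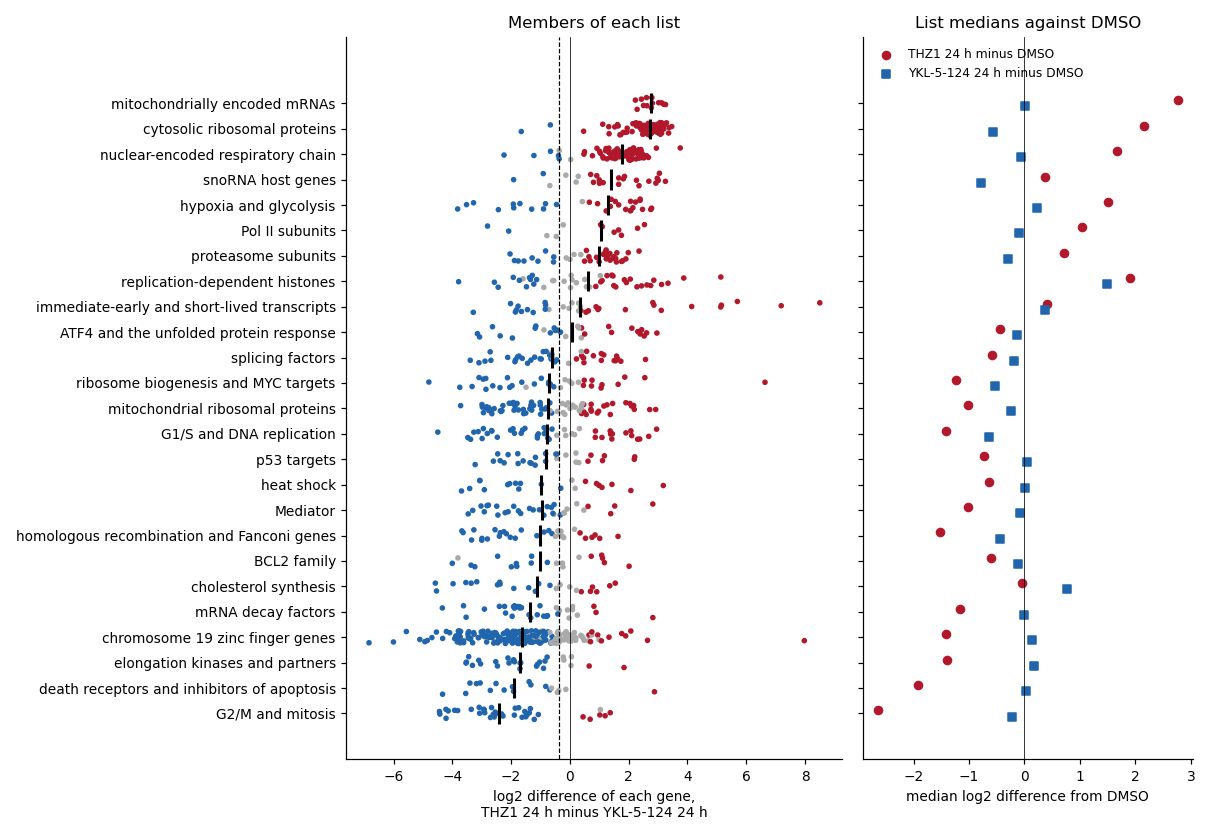
Left, each point is 1 tested gene of a list, placed at its log2 difference, THZ1 24 h minus YKL-5-124 24 h, under TMM (red higher, blue lower, grey not called), with the list's median as a black bar and the median of all genes as the dashed line. Right, red circles and blue squares give the list medians of THZ1 24 h and of YKL-5-124 24 h against the same DMSO libraries; for mitochondrial mRNAs and respiratory chain genes the blue squares lie near 0 and the red circles above 1, and for G2/M genes the red circle lies at −2.65. The direction of the lists of at least 10 genes with medians above 0 is that under TMM. Against ribosomal protein genes it turns, the cytosolic ribosomal proteins included with 20 higher and 28 lower, but for the mitochondrial mRNAs, which lose it with 0 higher and 1 lower. All of these lists but the mitochondrial mRNAs, the cytosolic ribosomal proteins and the respiratory chain lose or turn it under library totals.

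Protein folding genes differed in both directions. HSPA8, the constitutive cytosolic HSP70 chaperone (chromosome 11, 123057489 to 123063230), had 247, 183 and 188 CPM in THZ1, against 2934, 2832 and 2196 CPM in YKL-5-124 and 3628, 2807 and 3531 CPM in DMSO, a 12.9-fold difference. THZ1 lay far below the other groups, which overlapped. DNAJB1, its cochaperone of the J-domain family, had 14.01, 12.2 and 15.03 CPM in THZ1 and 153, 156 and 128 CPM in YKL-5-124. HSP90AA1, the inducible cytosolic HSP90, went the other way, with 19266, 19032 and 19260 CPM in THZ1 and 4697, 4398 and 4574 CPM in YKL-5-124. It overlaps WDR20 on the other strand, and its difference of 2.07 was −0.71 against ribosomal protein genes. Of 21 heat shock genes 12 were lower and 7 higher, beside 44.1% and 31.8% of all genes under TMM. Their calls were mostly lower under all 5 scalings, as were those of all genes. The unfolded protein response list was even, with 11 higher and 12 lower of 28 under TMM, 12 and 8 under RLE and 7 and 18 under library totals. PDIA6, a disulfide isomerase of the endoplasmic reticulum, had 1395, 1526 and 1512 CPM in THZ1 and 179.8, 192 and 198 CPM in YKL-5-124, and CANX, the lectin chaperone calnexin, was 6.11-fold higher. DNAJB9, an IRE1 target and cochaperone of BiP, was 8.85-fold lower.

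Cholesterol synthesis genes moved under both compounds in different ways. The list was lower for 14 and higher for 6 of 24 in THZ1 against YKL-5-124, beside 44.1% and 31.8% of all genes under TMM. Its calls were mostly lower under all 5 scalings. Against DMSO, THZ1 had 7 higher and 11 lower, with a median of −0.051, beside 32.3% and 44.0% of all genes. YKL-5-124 had 17 higher and 0 lower, with a median of 0.77, beside 8.92% and 12.7%. SQLE, squalene epoxidase, had 10.4, 11.2 and 10.2 CPM in THZ1, against 258, 269 and 234 CPM in YKL-5-124 and 172, 135 and 155 CPM in DMSO. SQLE was 23.9-fold lower in THZ1 than in YKL-5-124 (log2 −4.58 ± 0.13, adjusted p = 3.02e-12), and the 3 groups did not overlap. MVK, mevalonate kinase, had 1.57, 1.84 and 0.939 CPM in THZ1, 35.3, 39.3 and 26.6 CPM in YKL-5-124 and 18.6, 16.1 and 19.1 CPM in DMSO; it overlaps MMAB on the other strand. SREBF2, the transcription factor that drives the pathway, was itself 2.91-fold higher in THZ1, with a log2 difference of 0.26 under library totals that did not pass and of −1.24 against ribosomal protein genes.

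The list of hypoxia and glycolysis had members that differed in either direction. Of 30 tested 18 were higher and 11 lower under TMM, 11 and 14 under library totals, while the ribosomal protein reference left 0 higher and 26 lower. GAPDH had 10322, 8658 and 8257 CPM in THZ1, against 1383, 1415 and 1168 CPM in YKL-5-124 and 1714, 1251 and 1612 CPM in DMSO. PFKM, a phosphofructokinase, was 6.73-fold higher. LDHA, lactate dehydrogenase A, stood against them with 182, 197 and 191 CPM in THZ1, 1952, 1868 and 1705 CPM in YKL-5-124 and 2006, 1664 and 1952 CPM in DMSO, a 9.70-fold difference. PFKFB4, a hypoxia-induced regulator of glycolysis, was higher than DMSO in YKL-5-124 and lower in THZ1, at 0.728 ± 0.179 CPM in THZ1, 8.34 ± 2.48 CPM in YKL-5-124 and 2.37 ± 0.367 CPM in DMSO. The log2 difference of GAPDH, a gene often used for scaling, was 2.78 ± 0.14 under TMM and 0.011 against ribosomal protein genes.

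Of the RNA processing lists, that of mRNA decay factors stood farthest below all genes. Splicing factors had 24 lower and 15 higher of 44, cleavage and polyadenylation factors 14 and 7 of 25, and mRNA decay factors 24 and 3 of 34, all mostly lower under all 5 scalings; the first 2 lists were close to the shares of all genes. SRSF3, an SR splicing protein, averaged 43.2 ± 4.51 CPM in THZ1 and 452 ± 71.9 CPM in YKL-5-124, and SNRPD2, a core protein of the snRNPs, 1184 ± 166 CPM in THZ1 and 199 ± 48.8 CPM in YKL-5-124. PAPOLG, a poly(A) polymerase, was 14.7-fold lower, and PCF11, a termination factor, was 3.59-fold higher with 129, 145 and 139 CPM in THZ1 and 34.4, 36.1 and 44.6 CPM in YKL-5-124. CPSF6, which steers the choice of poly(A) site, had 146, 139 and 144 CPM in THZ1, 42.3, 41.99 and 40.7 CPM in YKL-5-124 and 154, 128 and 143 CPM in DMSO. Under TMM YKL-5-124 was thus the compound that moved. CNOT6L, a deadenylase of the CCR4-NOT complex, had 0.966, 1.94 and 1.04 CPM in THZ1 and 27.7, 26.5 and 27.00 CPM in YKL-5-124, and ZFP36, which recruits that complex to AU-rich mRNAs, had 97.8, 98.9 and 109.9 CPM in THZ1 and 15.2, 14.8 and 13.4 CPM in YKL-5-124.

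Zinc finger genes of chromosome 19, a cluster of KRAB repressors with few exons, were lower in THZ1 as a block. Of 211 tested 157 were lower and 11 higher, with a median of −1.62, and 141 against 15 under RLE, which with upper-quartile factors left fewest lower of the 5 scalings. ZNF549 had 0.121, 0.102 and 0.209 CPM in THZ1 and 7.21, 6.71 and 7.42 CPM in YKL-5-124, and ZNF613 had 1 count in THZ1 and 210 in YKL-5-124, a ratio of 0.0134 with a counting interval of 0.000338 to 0.0756. At 4 h 165 were lower and 2 higher, with a median of −1.82, beside 21.9% lower and 11.4% higher over all genes at that time. Against DMSO at 24 h THZ1 had 146 lower and 18 higher, beside 44.0% and 32.3% of all genes. YKL-5-124 had 5 lower and 23 higher, beside 12.7% and 8.92%. Neighbouring genes of this family share sequence and overlap, and reads that match several of them cannot be assigned with certainty.

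Replication-dependent histone genes, whose mRNAs end without a poly(A) tail, were higher against DMSO under both compounds, in 33 of 44 tested with THZ1 and 25 with YKL-5-124, and lower in 1 and 1. Of all genes 32.3% were higher and 44.0% lower with THZ1, and 8.92% and 12.7% with YKL-5-124. Between the compounds 20 were higher and 11 lower in THZ1 under TMM and 8 and 20 under library totals. HIST1H2BJ had 3.74, 4.08 and 3.86 CPM in THZ1, 65.6, 61.1 and 34.7 CPM in YKL-5-124 and 3.73, 1.94 and 3.12 CPM in DMSO, and HIST1H2AC 16.8, 8.98 and 9.91 CPM in THZ1, 79.1, 66.5 and 47.1 CPM in YKL-5-124 and 11.2, 4.06 and 11.3 CPM in DMSO. Both were called higher in YKL-5-124 than in DMSO, whereas THZ1 against DMSO was at 0.42 (adjusted p = 0.319) and 0.42 (adjusted p = 0.386). HIST1H2BG had 12.4 ± 0.627 CPM in THZ1 and 0.346 ± 0.115 CPM in YKL-5-124. Copies of this family are nearly identical, so single members are uncertain.

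Markers of identity were measured in the same libraries. KRT8, a keratin of simple epithelia, had 3097, 2405 and 2502 CPM in THZ1 and 1006, 1002 and 791 CPM in YKL-5-124, and its partner KRT18 380.3, 249.7 and 238 CPM in THZ1 and 429, 451 and 410.1 CPM in YKL-5-124. KRT19 had 2 counts over the THZ1 libraries and 0 over the YKL-5-124 libraries, and CDH1, E-cadherin, stayed under 7 CPM in all 6, so that not all defining markers of a ductal epithelium were present. At that level CDH1 was called higher in THZ1 under TMM (log2 2.88 ± 0.33), but not against ribosomal protein genes, at 0.13. EPCAM, an epithelial adhesion protein, had 68.3, 63.8 and 55.1 CPM in THZ1 and 12.1, 10.5 and 11.2 CPM in YKL-5-124, and VIM, vimentin, 303, 279.7 and 272 CPM in THZ1 and 155, 147 and 141 CPM in YKL-5-124. KRT8, EPCAM and VIM were called higher in THZ1 under TMM and KRT18 lower, but under library totals VIM was called lower and KRT8 was not called, against ribosomal protein genes KRT8 and VIM were called lower, and under RLE, upper-quartile and DESeq2 scaling KRT18 was not called. The sum of 6 epithelial markers, most of it KRT8, was 2727 to 3556 CPM in THZ1, 1213 to 1465 CPM in YKL-5-124 and 1352 to 1640 CPM in DMSO. That of 3 mesenchymal markers, VIM among them, was 394 to 397 CPM in THZ1, 188 to 190 CPM in YKL-5-124 and 205 to 223 CPM in DMSO. Of 21 tested mesenchymal genes 14 were higher and 2 lower under TMM, which library totals turned to 7 and 8, and the ribosomal protein reference to 0 and 13. The epithelial list was even, with 6 higher and 7 lower of 14; TJP1, a scaffold of tight junctions, was 6.50-fold lower. Of 20 stromal, endothelial and immune markers 5 were at 0 in all 6 libraries, and the summed level of the 20 was 4.83 to 13.3 CPM in THZ1, 2.71 to 12.2 CPM in YKL-5-124 and 2.40 to 3.79 CPM in DMSO. Of 20 acinar, islet and liver markers 14 were at 0 in all 6, and their sum was 2.30 to 4.71 CPM in THZ1, 0.474 to 1.09 CPM in YKL-5-124 and 0.580 to 1.22 CPM in DMSO.

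The largest rises over all protein-coding genes were of genes that were low or absent in the counts of YKL-5-124 and DMSO libraries. PLCB1, a phospholipase C (chromosome 20, 8114453 to 8968360), had 432, 247 and 204 CPM in THZ1, against 0.455, 0.875 and 0.631 CPM in YKL-5-124 and 0.799, 0.580 and 1.14 CPM in DMSO, a 452-fold difference (log2 8.82 ± 0.51, adjusted p = 4.67e-10). FCRLB, an Fc receptor-like protein of B cells, had 184, 101 and 109 CPM in THZ1 and 0.945, 0.542 and 0.631 CPM in YKL-5-124. RHOH, a GTPase known from blood cells, had 463 counts in THZ1 and 0 in YKL-5-124, which puts it at least 435-fold higher with a floor of 3 counts over the YKL-5-124 group. FRMD1, with 394 counts against 0, was at least 370.0-fold higher and CLN3, a lysosomal membrane protein with 302 against 0, at least 284-fold. Such floors cover counting error only. CLN3 overlaps RP11-435I10.4 on the same strand and APOBR on the other, neither of them tested. How the counting treated reads shared by genes is not given, so low counts of CLN3 need not mean low expression. MROH8, at 313 ± 87.4 CPM in THZ1 and 0.761 ± 0.507 CPM in YKL-5-124, lies opposite RPN2, and KIF25, with 297 counts in THZ1 and 2 in YKL-5-124 (ratio 418, counting interval 115 to 3471), opposite KIF25-AS1, and reads of the pairs cannot be told apart without the strand of the counting. Over all biotypes 81 tested genes had 0 counts in the YKL-5-124 libraries, of which 81 were called and 19 of those were protein-coding, and 94 had 0 counts in the THZ1 libraries, of which 89 were called and 36 were protein-coding. A gene at 0 in 1 group could be tested only through its level in other groups, so these shares of calls are largely fixed by the filter on low counts. Genes under 0.5 CPM in YKL-5-124 and at 5 CPM or more in THZ1 numbered 70, with 21 protein-coding, and genes with the groups exchanged 50, with 47 protein-coding.

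Most of the largest falls were of genes with over 10 CPM in YKL-5-124 and DMSO libraries. VANGL1, a planar polarity protein (chromosome 1, 115641953 to 115698224), had 1.09, 1.53 and 0.626 CPM in THZ1, against 57.7, 52.99 and 68.2 CPM in YKL-5-124 and 55.99, 58.1 and 51.2 CPM in DMSO, 54.7-fold lower than in YKL-5-124 (log2 −5.77 ± 0.20, adjusted p = 5.24e-12). PDGFB, a growth factor of mesenchymal cells, had 0, 0.204 and 0.209 CPM in THZ1, 8.89, 10.2 and 14.8 CPM in YKL-5-124 and 0.932, 1.70 and 0.843 CPM in DMSO, so its large difference came from a rise with YKL-5-124 as well as a fall with THZ1. RAB40C, an adaptor of a ubiquitin ligase with 6 counts over the THZ1 libraries, was 51.6-fold lower (log2 −5.69, and −6.61 without THZ1 replicate 3) and TRIM32, a ubiquitin ligase, 35.01-fold. WBP1L averaged 1.20 ± 0.112 CPM in THZ1 and 37.9 ± 3.06 CPM in YKL-5-124. SAYSD1 was 33.8-fold lower and NLRP2, a protein of the NLR family, 30.99-fold. By the rule that chose these 7 genes, none overlapped between the groups in CPM. Among long noncoding genes RP11-473M20.16 had 205, 230.0 and 189 CPM in THZ1 and 0.245, 0.125 and 0.395 CPM in YKL-5-124, and LINC00934 364 counts in THZ1 and 0 in YKL-5-124, at least 342-fold higher. AC093323.3 had 1.82 ± 0.205 CPM in THZ1, 21.9 ± 1.01 CPM in YKL-5-124 and 18.3 ± 2.55 CPM in DMSO.

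The difference between the compounds varied with the structure of the genes. Over 12212 protein-coding genes the median was −0.50, with 30.89% higher and 47.99% lower in THZ1. Genes with 2 exons in the longest transcript (363) had a median of −1.45 and 62.5% lower, genes with 1 exon (229) −0.86, and genes with 9 to 16 exons (4110) −0.38. Genes with under 1 kb of exonic sequence (126) had a median of 1.42 and 61.1% higher, and genes with 9 kb or more (1932) −0.81 and 55.0% lower. Over gene span the medians took no single direction, with of 0.07 under 5 kb, −0.73 at 100 to 200 kb and −0.21 at 500 kb or more. The 206 protein-coding genes at 500 CPM or more in YKL-5-124 had a median of 2.06, with 80.1% higher in THZ1. Across genes, which are not independent replicates, Spearman's rho with the difference was −0.129 for exonic length, −0.076 for span and 0.059 for exon number. The libraries' slopes on exonic length, given above, come from the same counts, so that they lie on the same side is no separate support.

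**Figure D5:**
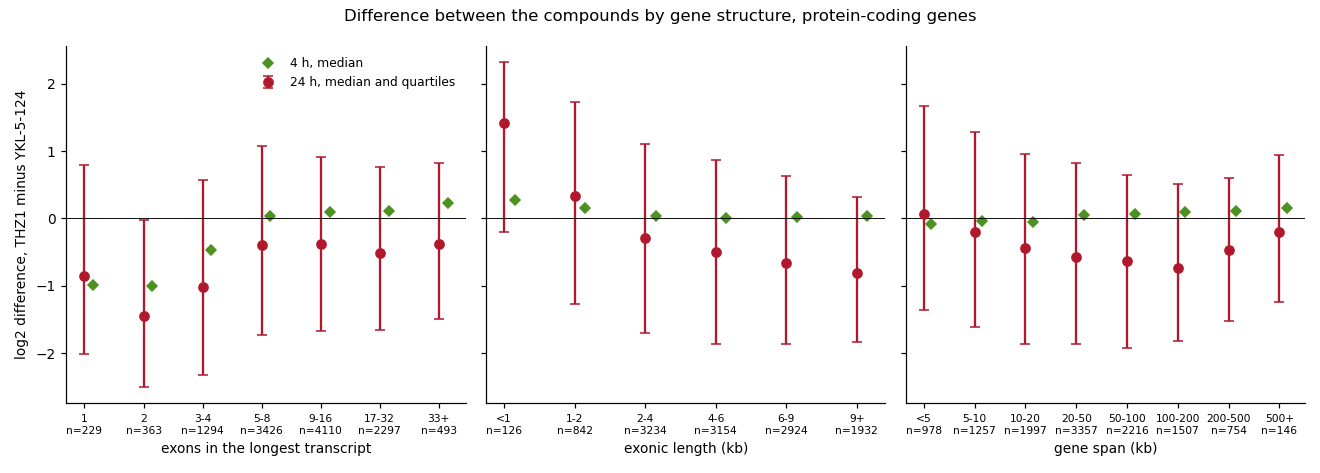
Red points and bars give the median and quartiles of the log2 difference, THZ1 minus YKL-5-124, at 24 h over protein-coding genes in bins of exon number, exonic length and gene span, and green diamonds the median at 4 h; numbers of genes stand under each bin. The medians at 24 h fall with exonic length, from 1.42 under 1 kb to −0.81 at 9 kb or more, while those at 4 h stay near 0 there and lie lowest for genes with 1 or 2 exons.

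The compounds already differed at 4 h, but less and mostly one way. At 4 h 1649 genes were higher (11.4%) and 3172 lower (21.9%) in THZ1 than in YKL-5-124, and at least 2-fold only 61 were higher (0.422%) against 2091 lower (14.5%). The difference at 24 h minus that at 4 h passed its own test for 8331 genes (57.6%), upward for 3842 (26.6%) and downward for 4489 (31.0%). Immediate-early genes were mostly lower at 4 h, 23 of 34 with 1 higher and a median of −1.40, against 0.33 at 24 h. MYC was at −2.34 at 4 h and 0.63 at 24 h, a change of 2.97 ± 0.25 (adjusted p = 1.02e-07). JUN was at −3.33 at 4 h and 0.30 at 24 h, and CDKN1B at −2.42 and 0.10. MCL1 was lower at both times, at −2.27 at 4 h and −1.82 at 24 h. G2/M genes had a median of −0.074 at 4 h, with 8 lower and 1 higher, against −2.42 and 33 lower at 24 h, and TTK changed by −3.85 ± 0.22 between the times. Ribosomal protein genes had a median of 0.43 at 4 h and 2.71 at 24 h.

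Some genes crossed over. Under TMM 359 genes were called in opposite directions at the 2 times and called in the contrast between them. Of these 159 were lower in THZ1 at 4 h and higher at 24 h, and 200 the reverse. Crossings were not counted under the other scalings. KLF10, an early response gene of TGF-beta, had a log2 difference of −1.89 at 4 h and 5.13 at 24 h, when it had 2559, 1923 and 1921 CPM in THZ1 and 70.8, 65.5 and 46.5 CPM in YKL-5-124. BHLHE40, a transcriptional repressor tied to the clock and to hypoxia, crossed likewise, from below at 4 h (−1.33) to above at 24 h (3.50), and so did UBOX5, a ubiquitin ligase (−2.79 and 3.94), and GPR3, a receptor that raises cyclic AMP (−1.22 and 3.63). The reverse crossing was small at 4 h and large at 24 h: XPO1, the nuclear exporter, was at 0.34 and then −2.98, LDHA at 0.34 and −3.28, LMNB1, lamin B1, at 0.33 and −2.75, and ERLEC1, a lectin of the endoplasmic reticulum, at 0.30 and −2.63. TMM factors at 4 h were 0.970 to 1.02 in THZ1 and 1.14 to 1.20 in YKL-5-124. The sign of such small differences at 4 h is thus relative to TMM. At 24 h XPO1 had 52.2, 50.7 and 57.1 CPM in THZ1, 433, 417 and 415 CPM in YKL-5-124 and 428, 367 and 423 CPM in DMSO.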

How the data were processed

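RNA-seq of PATU-8988T cells gave a table of raw counts per gene for 15 libraries in 5 groups of 3, deposited by the authors with no normalization. The submitters' processing notes name the aligner STAR (2.6.1d), the counter featureCounts (1.5.0-p3), the package DESeq2 (1.24.0) and the build GRCh38. The sources used here do not give the strand setting or the treatment of reads with several matches. Of 58676 genes, the 14461 kept by filterByExpr (minimum count 10, total 15) hold 99.92% of the counts. One quasi-likelihood model (edgeR 4.0.16, R 4.3.3) over all 15 libraries used TMM factors, and p-values were adjusted by the Benjamini-Hochberg method over all genes tested with a threshold of 0.05. CPM are counts scaled to a common library size by TMM factors, and fold changes depend on a small prior count in genes near 0. Replicates of 1 group differed beyond counting error, with a chi-square of 4.19 to 77.0 for each degree of freedom. Alternatives were other scalings, filters, DESeq2 1.42.0, the 6 libraries alone, a replicate block, a covariate for each library's slope on exonic length centred within its group, and each replicate left out.

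The comparison, the gene lists and the named genes were chosen with earlier results of these data known. Named genes are the 8 protein-coding genes per direction with the largest differences (mean of at least 5 CPM, no overlap between groups), up to 2 called members per list and direction with at least 1 CPM, 22 genes taken whatever their p, 4 per direction that crossed between the times, and 4 noncoding genes per direction, and the text takes most but not all of them, since some are not reported here. KIF11, KIF23 and CDT1 were added for their promoter match and KRT8, KRT18, EPCAM and VIM as markers. Exon numbers come from GENCODE 29. Promoters come from RefSeq. The statistics were tested on simulated counts in which few genes changed and all groups had otherwise the same make-up. Such counts cannot test the scalings where most genes are called, as here. Intervals from counts cover counting error only.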

Additional observations from a re-analysis of the deposited data

Results flagged for a closer look

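The difference between THZ1 and YKL-5-124 changed between the times for many genes, in a test of that change itself. It was higher at 24 h than at 4 h for 3842 genes and lower for 4489 (edgeR, adjusted p under 0.05). Among the genes that crossed over, the log2 difference at 24 h minus that at 4 h was 7.02 for KLF10, 6.73 for UBOX5, 4.83 for BHLHE40 and 4.85 for GPR3, and −3.62 for LDHA, −3.32 for XPO1, −3.07 for LMNB1 and −2.94 for ERLEC1. These 8 were picked for that change, so the values describe them. With 3 libraries a group, no search for single outlying libraries was made by rule.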

How the results depend on the processing

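Directions held for most genes named, but the number of calls per direction depended on the scaling. Library totals gave 1998 genes higher and 9927 lower in THZ1 (at least 2-fold, 1160 and 8806), and for the change between the times 1558 and 7917. The ribosomal protein reference gave 277 higher and 12946 lower (at least 2-fold, 226 and 12241). Higher genes were 41.9% of the calls under TMM, 49.5% under RLE, 49.1% under upper-quartile factors, 49.3% with DESeq2, 16.8% under library totals and 2.10% against ribosomal protein genes. The other settings stayed within 1.5 times of each count, and leaving out each replicate in turn gave 4501 to 4563 higher and 5967 to 6251 lower, at least 2-fold 3545 to 3608 and 4975 to 5211, and for the change between the times 3612 to 4003 and 4135 to 4427. The length slope, centred within groups, as a covariate gave 4942 higher and 6801 lower. This fit does not adjust the difference between the compounds for length.

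Of the 137 genes named, these changed sign with a call in the main test or in the alternative. Under library totals they were CDKN1B at −1.17, JUN at −0.98, MNAT1 at −1.17, MYC at −0.66, PMAIP1 at −0.10 and VIM at −0.33 (log2). Against ribosomal protein genes they were BID at −0.73, BIRC5 at −1.38, CANX at −0.18, CDC45 at −0.10, CDKN1B at −2.65, CDKN2A at −0.10, CPSF6 at −0.998, EPCAM at −0.32, FANCI at −1.17, GADD45A at −0.58, GTF2H3 at −0.43, HSP90AA1 at −0.71, IFI6 at −0.88, JUN at −2.49, KRT8 at −1.25, MNAT1 at −2.64, MYC at −2.17, NELFCD at −0.93, PCF11 at −0.96, PFKM at −0.018, PMAIP1 at −1.56, POLR2E at −0.23, PSMD2 at −0.43, SNRPD2 at −0.17, SREBF2 at −1.24, SRM at −0.26, TFDP1 at −0.28, TIMELESS at −0.011, VARS at −0.64 and VIM at −1.83. E2F1 was at 0.26 with DESeq2 and 0.26 under RLE. These reversals follow the shift that each scaling gives to all genes.

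With the replicate number as a block 4724 genes were higher and 6608 lower (at least 2-fold, 3523 and 5240), and 4086 and 4831 for the change between the times, which moved no count by over 1.5 times. The block turned 2 of the named genes into calls, MKI67 (log2 −2.50, adjusted p = 0.0251) and E2F2 (log2 −1.21, adjusted p = 0.0351), both lower in THZ1, and changed no other call among the 137. The samples share only a number: deviations of THZ1 and YKL-5-124 libraries of the same number correlated at 0.229, −0.0738 and 0.242, and those of different numbers at −0.312 to 0.205, so not every library was closest to its own number. At this depth genes with under about 10 counts a library were mostly left untested.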
